A study of Homo sapiens with 8 samples.

Results

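The HOX genes of T47D breast cancer cells were described as all rows of the deposited expression table whose symbol is HOX followed by a cluster letter and a paralog number. The rule found 34 of the 28859 genes in the table, with 10 in HOXA, 9 in HOXB, 9 in HOXC and 6 in HOXD. GENCODE release 29 lists 39 such genes, and HOXA13, HOXB1, HOXD3, HOXD4 and HOXD8 were not analysed here. A filter that asked for 2 or more libraries with a normalized count of 10 or more kept 16 of the 34 HOX genes among 14881 genes tested.

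T47D is an established human breast cancer line of luminal, hormone receptor-positive type. The 8 RNA-seq libraries formed 4 groups of 2, from cells given a control plasmid (EV), a plasmid for HA-tagged wild-type GATA3 (wt), or a plasmid for the HA-tagged truncated GATA3 variants TR1 or TR2. GATA3 is a zinc finger transcription factor of luminal breast epithelium that binds GATA sequences, and HA is a short epitope tag. The labels do not say where the truncations lie, which promoter drives the plasmids, or whether the 2 libraries of a group came from separate cultures, so p-values measure only the spread between these samples, which may be technical. All groups share the 1 cell line and its own GATA3 gene, and the counts do not separate plasmid from endogenous transcripts.

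HOX genes encode homeodomain transcription factors that give cells positional identity along the head-to-tail axis. They lie in clusters in which the order of genes on the chromosome follows the order of their expression domains, from paralog group 1 at the anterior end to group 13 at the posterior end. HOX proteins bind DNA with cofactors of the TALE homeodomain class such as PBX and MEIS proteins. Polycomb complexes keep silent parts of a cluster closed, and trithorax proteins keep active parts open. In the mammary gland, HOX genes are active in the adult as well as in the embryo, and their pattern is often altered in breast cancer.

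The libraries held 13292861 to 19572394 reads on genes. GATA3 itself stood at 13730 and 12680 normalized counts with the control plasmid, 13560 and 13830 with wild type, 9506 and 8638 with TR1, and 10240 and 10590 with TR2. By limma, GATA3 fell with TR1 against both other plasmids (log2 fold change -0.54 against the control, adjusted p = 0.00149; -0.60 against wild type, adjusted p = 0.000539). It also fell with TR2 against wild type (-0.40, adjusted p = 0.0104, but 0.0786 to 0.124 when either library of wild type or of TR2 was left out). The wild-type and control libraries overlapped, so GATA3 counts did not check the wild-type label. Luminal markers summed to 146700 to 179100 normalized counts in every library, while leukocyte markers reached at most 4.85 and endothelial markers at most 10.7. The luminal sum was mostly KRT8, KRT18 and KRT19, and TFF1 of that list had only 1 to 10 reads per library. With TR1 against the control, KRT8 and KRT19 of the list passed as higher, and FOXA1 and GATA3 as lower. Fibroblast markers summed to 272 to 447, carried by COL1A1 (205 to 423), with COL1A2 at 0 in all libraries. COL1A1 fell with TR1 by limma (log2 fold change -0.89 against wild type, adjusted p = 0.000938, and -0.78 against the control, adjusted p = 0.00291). It was also called lower with TR2 against wild type. DCN, COL3A1 and LUM of that list went the other way with TR1. DCN had 0 reads in the control and wild-type libraries, 64.0 and 58.6 normalized counts with TR1, and 2.70 and 1.86 with TR2 (limma adjusted p = 7.01e-05 for TR1 against wild type). COL3A1 had 0 reads in the same 4 libraries, 20.4 and 18.4 with TR1, and 4 reads in each TR2 library (adjusted p = 0.000539 for TR1 against wild type), and LUM was detected only with TR1, at 7.76 and 27.6. Basal and myoepithelial markers summed to 3207 to 3578 with TR1 against 999 to 1264 in the other groups. Most of that sum was ACTA2, at 3342 and 3001 normalized counts with TR1, while the basal keratins KRT5 and KRT14 had 0 to 3 reads in every library. TP63 and MYLK of the same list were detected in all libraries, at 35.35 to 70.78 and 124.3 to 176.7. The 2 TR1 libraries also stood apart from each other, with PGR, the progesterone receptor, at 7826 and 18200 normalized counts and SUZ12, a Polycomb subunit, at 620.5 and 1560. All groups share 1 estimate of the spread, and leaving out TR1 replicate 1 or 2 took the genes called with wild type against control from 251 to 1865 or 1867. The part of these markers and of this gap in the results on HOX genes was not tested, and in bulk RNA fewer cells expressing a gene and less RNA per cell cannot be told apart.

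Most HOX transcripts of T47D cells came from the HOXC cluster. The 9 HOXC genes held 84.0% to 85.6% of all HOX normalized counts of a library, the HOXB genes 12.5% to 14.2%, the HOXA genes 1.48% to 1.93% and the HOXD genes 0.0423% to 0.236%. All 9 HOXC genes passed the filter, against 4 of 10 in HOXA, 3 of 9 in HOXB and 0 of 6 in HOXD. A mean of at least 100 normalized counts was reached by 8 genes, which were HOXC4, HOXC6, HOXC9, HOXC10, HOXC11, HOXC13, HOXB2 and HOXB3.

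On the scale of normalized counts per kb of exon, HOXC10 was highest at 821 to 875 over the 8 libraries. This scale adjusts for exon length but not for exons shared between genes. HOXC10 belongs to the lumbar level of the body axis. HOXC13, a regulator of hair and nail keratins, followed at 392 to 556 per kb. HOXC4 stood at 208 to 336 per kb, HOXC11 at 217 to 248 and HOXB2 at 195 to 228, and the ranges of these 3 overlapped, so their order was not resolved. HOXC9 stood at 130 to 215 per kb and HOXC6 at 57.4 to 121. HOXB3, at 32.6 to 53.3 per kb, and HOXC8, at 30.2 to 58.0, overlapped fully. The remaining kept genes were lower, with HOXA5 at 13.2 to 23.6 per kb, HOXA6 at 11.2 to 23.7, HOXC12 at 8.38 to 12.1, HOXA11 at 6.98 to 10.5, HOXA3 at 4.08 to 7.69, HOXC5 at 2.03 to 8.08 and HOXB4 at 1.62 to 4.68. HOXC12 was therefore far below its immediate neighbours HOXC11 and HOXC13 on the same scale. HOXC5 was also far below HOXC4 and HOXC6, but 43.4% of its exon length is shared with other genes on its strand. How reads of shared exons were assigned is not known, so the level of HOXC5 is less certain.

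**Figure D1:**
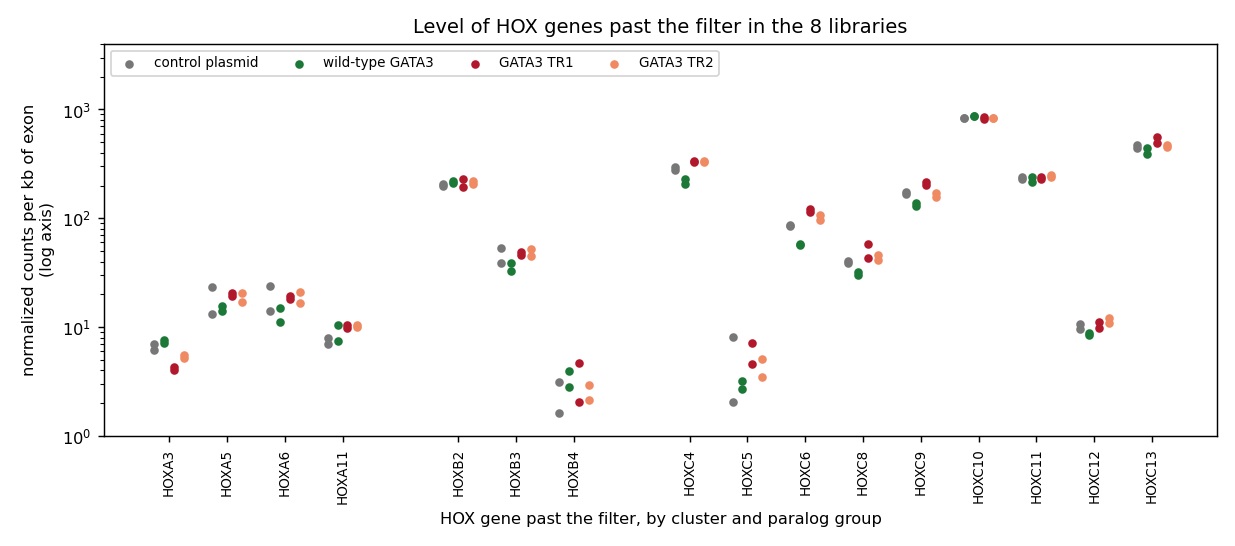
Level of the 16 HOX genes past the filter in the 8 libraries, as normalized counts per kb of exon on a log axis, ordered by cluster and paralog group; each point is 1 library, coloured by plasmid. Apart from HOXC5 and HOXC12, the HOXC genes fill the upper part of the plot, with HOXC10 at 821 to 875, and HOXB4 lies at its foot at 1.62 to 4.68.

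The 18 HOX genes under the filter were 6 HOXA genes, 6 HOXB genes and all 6 HOXD genes. Of these, 11 had at most 3 reads in every library, and 14 had 0 reads in at least 1 library. HOXB7 was the most evenly covered of them, at 7 to 12 reads per library, and HOXD12 had 1 to 10. HOXA10, a regulator of the uterus and of blood cell development, had 2 and 3 reads with the control plasmid, 1 and 1 with wild type, 6 and 7 with TR1, and 3 and 3 with TR2. HOXB6 had 12 reads in TR1 replicate 1 and 2 to 4 in the other libraries. HOXB13, a prostate HOX gene also studied in breast cancer, had 1 read in each control library and 0 in the other 6. In a library, 0 reads allow up to 3 reads, which is 2.51 to 3.66 normalized counts at these depths, counting error only. When all genes were tested with no filter, HOXA10 was the 1 gene of these 18 to pass, with TR1 against wild type (limma adjusted p = 0.0496). In that comparison 1778 of all 27713 genes passed with no filter. Its fold change is not given, since at 1 to 7 reads it depends on the pseudocount.

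The HOXC cluster lies on chromosome 12 (GRCh38) with all its genes on the plus strand, running from HOXC13 at chr12:53938765-53946544 to HOXC4 at chr12:54016931-54056030. Of its 9 genes, 8 had their lowest group mean with wild-type GATA3, and the exception was HOXC10, which had its highest there. How many of all genes had their lowest mean with wild type was not counted. HOXC5, HOXC10, HOXC11 and HOXC12 passed in none of the 6 comparisons. The highest group mean was that of TR1 in HOXC5, HOXC6, HOXC8, HOXC9 and HOXC13, and that of TR2 in HOXC4, HOXC11 and HOXC12. The genes differed in the size of these steps, and HOXC4 to HOXC9 were set apart as a stretch after the values had been seen. The 5 together held 27.3% and 27.5% of the HOXC reads with the control plasmid, 21.8% and 22.7% with wild type, 29.8% and 31.6% with TR1, and 29.1% and 30.1% with TR2. These shares do not depend on how the libraries were scaled, and the wild-type libraries lay below all 6 others.

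**Figure D2:**
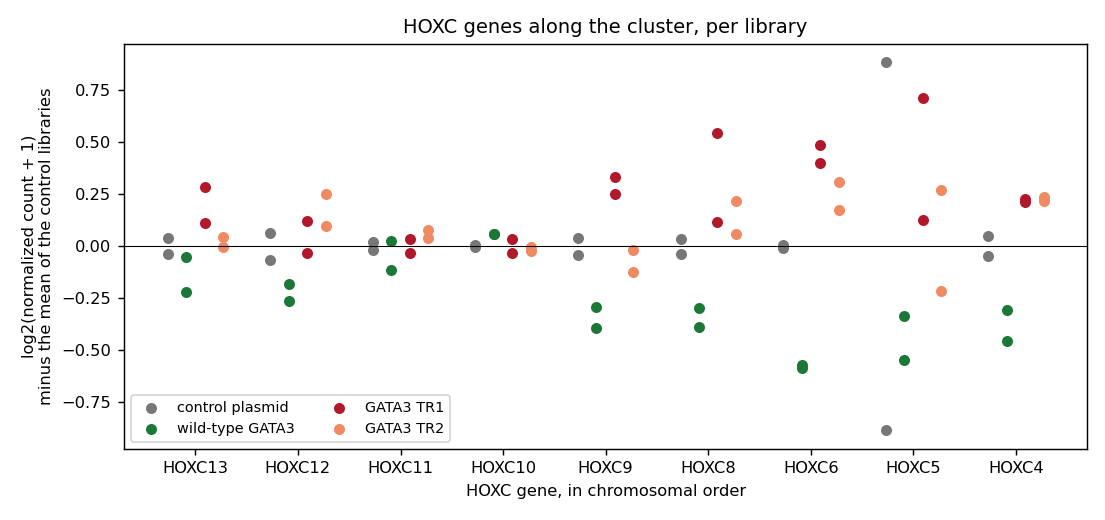
The 9 HOXC genes in chromosomal order, as log2(normalized count + 1) of each library minus the mean of the 2 control libraries; each point is 1 library. Wild-type points lie below 0 and TR1 points above it from HOXC9 to HOXC4 and in HOXC13, while HOXC10 and HOXC11 stay near 0 in all groups; the control libraries of HOXC5, with 4 and 14 reads, are far apart.

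HOXC6 (ENSG00000197757, chr12:53990624-54030823), a gene of the thoracic level that is also expressed in mammary epithelium, had the highest fold changes of the 16 tested HOX genes with TR1 and with TR2 against wild type. Its normalized counts were 303.9 and 307.2 with the control plasmid, 203.3 and 205.4 with wild type, 403.3 and 428.3 with TR1, and 345.2 and 379.5 with TR2. No library of 1 group overlapped with another group, in the order wild type, control, TR2, TR1. The reads behind these values numbered 180 to 512 per library. Per 100 reads of HOXC10 in the same library, HOXC6 had 15.6 and 15.7 reads with the control plasmid, 9.98 and 10.1 with wild type, 20.1 and 22.4 with TR1, and 17.7 and 19.7 with TR2. HOXC10 had its own highest mean with wild type (2039, against 1940 to 1958 in the other groups). This slightly lowers the wild-type ratios, so they are not a separate check.

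HOXC4 (ENSG00000198353), the most anterior gene of the cluster, stood at 751.7 and 803.3 normalized counts with the control plasmid, 566.5 and 627.7 with wild type, 911.4 and 900.1 with TR1, and 903.4 and 915.9 with TR2. Wild type was lowest, and the TR1 and TR2 libraries overlapped above the control. HOXC9 (ENSG00000180806, chr12:53994895-54003337), another thoracic gene, stood at 295.3 and 279.1 with the control plasmid, 218.7 and 234.0 with wild type, 361.6 and 342.2 with TR1, and 263.4 and 284.0 with TR2. Here TR1 was above all other libraries and TR2 overlapped with the control. HOXC8 (ENSG00000037965, chr12:54009106-54012362), which patterns thoracic vertebrae, stood at 73.0 and 76.8 with the control plasmid, 60.7 and 57.1 with wild type, 81.4 and 109.6 with TR1, and 87.2 and 78.0 with TR2. TR1 and TR2 overlapped, and both TR1 libraries were above the control. HOXC5 (ENSG00000172789) had 4 and 14 reads with the control plasmid, 7 and 5 with wild type, 10 and 18 with TR1, and 12 and 8 with TR2, so its control libraries spanned nearly the range of all groups.

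**Figure D3:**
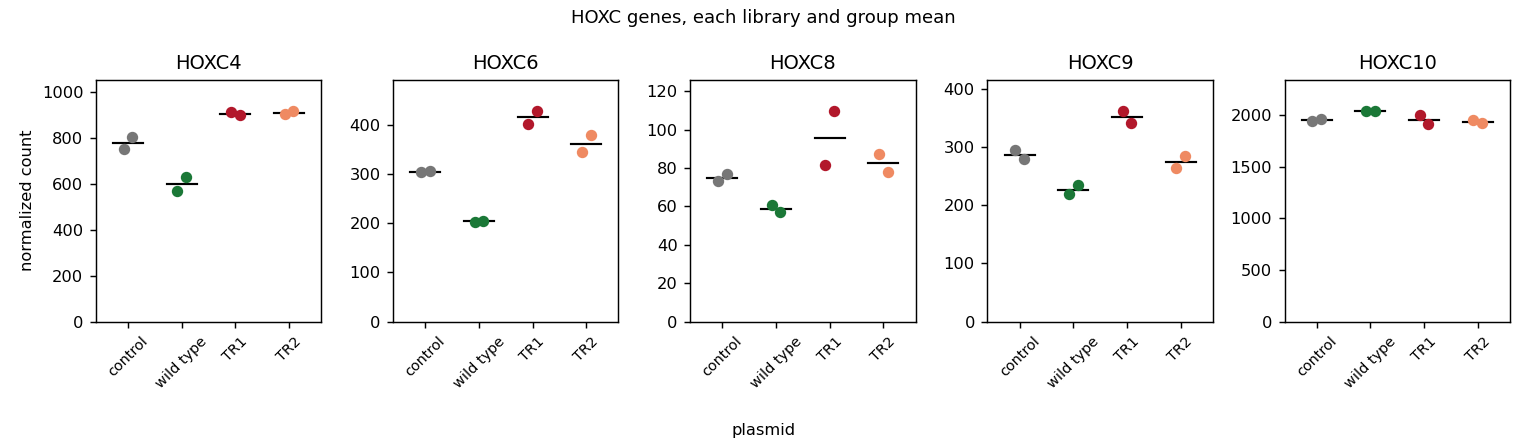
Normalized counts of HOXC4, HOXC6, HOXC8, HOXC9 and HOXC10 by plasmid; each point is 1 library and each bar the mean of 2. Wild-type libraries are lowest in the first 4 panels, as in HOXC6 with 203.3 and 205.4, while HOXC10 stays between 1914 and 2039.

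With TR1 against wild-type GATA3, 5 HOX genes were higher and 1 was lower, of 16 tested. The 5 were HOXC4, HOXC6, HOXC8, HOXC9 and HOXC13, all in the HOXC cluster, which held 9 of the 16 tested genes. HOXA3 was the gene that fell. HOXA5 (0.41), HOXA6 (0.50) and HOXB3 (0.41) also lay above wild type without overlap but did not pass, and HOXA11, HOXB2 and HOXB4 overlapped with it. Over all genes tested, 15.0% passed the same threshold (limma with Benjamini-Hochberg adjustment, adjusted p under 0.05), with 7.6% higher and 7.38% lower. HOXC6 rose 2.03-fold (log2 fold change 1.02 ± 0.10 SE, adjusted p = 0.00025). HOXC9 rose by 0.64 ± 0.10 on the log2 scale (adjusted p = 0.00417), HOXC4 by 0.60 ± 0.08 (adjusted p = 0.00174) and HOXC8 by 0.67 ± 0.18 (adjusted p = 0.0397). HOXC13 rose by 0.33 ± 0.09 (adjusted p = 0.0407). The median log2 fold change of the 9 HOXC genes was 0.60, beside 0.02 over all genes, and 7 of the 9 lay above wild type without overlap of libraries, as did 26.5% of all genes. HOXC5, at 0.86 ± 0.56 (adjusted p = 0.366), did not pass. The calls of HOXC6 and HOXC4 held in all 19 alternatives, and that of HOXC9 in 18, missing the threshold without wild-type replicate 1 (adjusted p = 0.0505). The calls of HOXC8 and HOXC13 were unstable: HOXC8 missed the threshold without any 1 library other than TR1 replicate 1 (adjusted p 0.0638 to 0.203), and HOXC13 without either library of the control, wild type or TR2 (0.0661 to 0.279).

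With TR2 against wild type, HOXC4 and HOXC6 were higher and no HOX gene was lower, where 5.24% of all genes passed and 2.75% were higher. HOXC6 rose 1.77-fold (log2 fold change 0.82 ± 0.10, adjusted p = 0.00197) and HOXC4 1.53-fold (0.61 ± 0.08, adjusted p = 0.00369). All 5 genes from HOXC4 to HOXC9 lay above wild type without overlap, as did 30.2% of all genes, but HOXC8 (0.48 ± 0.18, adjusted p = 0.2), HOXC9 (0.27 ± 0.10, adjusted p = 0.199) and HOXC5 (0.47 ± 0.56, adjusted p = 0.735) did not pass. The HOXC6 call held in all 19 alternatives. HOXC4 missed the threshold when wild-type replicate 1 (adjusted p = 0.06), TR2 replicate 1 (0.0503) or TR2 replicate 2 (0.0537) was left out. TR1 and TR2 were compared with the same wild-type libraries, so their results against wild type are not independent.

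With wild-type GATA3 against the control plasmid, HOXC6 was the 1 HOX gene of 16 to pass, and it fell by 0.58 ± 0.10 on the log2 scale to 0.670 of the control level (adjusted p = 0.0241). Over all genes, 1.69% passed and 1.0% were lower. HOXC4 (-0.38 ± 0.08, adjusted p = 0.0645) and HOXC9 (-0.34 ± 0.10, adjusted p = 0.188) lay below the control without overlap, as did 25.2% of all genes, but did not pass, nor did HOXC8 (-0.34 ± 0.18, adjusted p = 0.473) or HOXC13 (-0.13 ± 0.09, adjusted p = 0.563). The HOXC6 call was lost with either control, wild-type or TR2 library left out (adjusted p 0.0656 to 0.229), with voom weights on the read counts (0.0506) and with a trend on transcript length and GC content removed (0.0547). Without either TR1 library, or with only these 2 groups in the fit, HOXC4, HOXC6 and HOXC9 all passed, with HOXC4 at an adjusted p of 0.00359 to 0.00424, but these settings called 1865 to 1915 genes in all, against 251.

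With TR1 against the control plasmid, HOXC6 rose 1.36-fold (log2 fold change 0.44 ± 0.10, adjusted p = 0.0247) and was the 1 HOX gene to pass, where 10.6% of all genes passed and 4.91% were higher. HOXC4 (0.22 ± 0.08, adjusted p = 0.121), HOXC9 (0.29 ± 0.10, adjusted p = 0.108), HOXC8 (0.33 ± 0.18, adjusted p = 0.257) and HOXC13 (0.20 ± 0.09, adjusted p = 0.183) did not pass. HOXC8 stood at 0.54 without TR1 replicate 1, and HOXC13 at 0.29 without TR1 replicate 2. Both passed in those fits, which held 1 TR1 library and called more of all genes. Over all alternatives HOXC8 ranged from 0.12 to 0.54. HOXC6 lost its call with either control, wild-type or TR2 library left out (adjusted p 0.0501 to 0.131), with median centring (0.35, 0.0964), quantile normalization (0.0728) or only these groups (0.137). With the length and GC trend removed, HOXC4 (0.34, adjusted p = 0.0237), HOXC9 (0.41, 0.0298) and HOXC13 (0.33, 0.00677) passed as well. That setting called 2498 of 12860 genes, against 1578 of 14881 in the main fit.

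With TR2 against the control plasmid, 0 of 16 HOX genes passed in limma and 0 with voom weights, where 0.921% of all genes passed. At an unadjusted p under 0.05 there were 2, HOXC6 (0.24 ± 0.10, adjusted p = 0.268) and HOXC4 (0.23 ± 0.08, adjusted p = 0.241), and both had TR2 libraries above the control libraries without overlap, as did 28.7% of all genes. Over all genes, 17.2% had an unadjusted p under 0.05. HOXC4 passed when either TR1 library was left out. Its log2 fold change stayed at 0.23, and far more of all genes were called in those fits. HOXC9 stood at -0.07 ± 0.10 (adjusted p = 0.743), with a 95% interval of -0.31 to 0.17.

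The truncated variants were also compared with each other. No HOX gene of 16 passed with TR2 against TR1, by limma or with voom weights, where 1.22% of all genes passed. At an unadjusted p under 0.05 there was 1, HOXC9, at -0.36 ± 0.10 (95% interval -0.60 to -0.13, adjusted p = 0.203), and its TR2 libraries lay below its TR1 libraries, as did those of 19.0% of all genes. Over all genes, 10.1% had an unadjusted p under 0.05. HOXC6 stood at -0.20 ± 0.10 (95% interval -0.42 to 0.03, adjusted p = 0.572). HOXC4 stood at 0.01 ± 0.08, with an interval of -0.18 to 0.19 (adjusted p = 0.996), so TR1 and TR2 left HOXC4 at levels that these libraries did not tell apart.

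**Figure D4:**
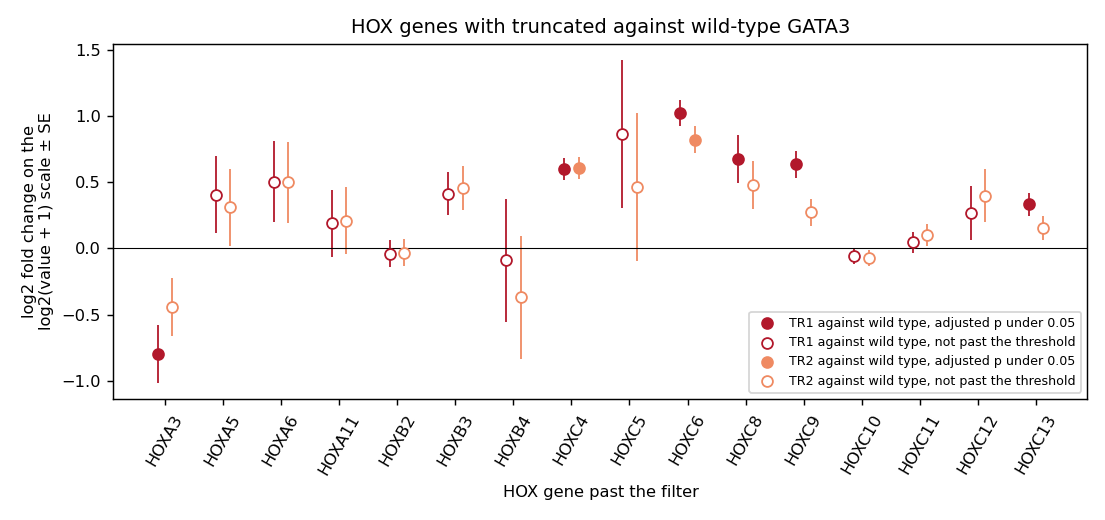
Log2 fold change with its SE of the 16 tested HOX genes, for TR1 and TR2 against wild-type GATA3; filled points have a limma adjusted p under 0.05. HOXC6 is the highest filled point at 1.02 with TR1 and 0.82 with TR2, HOXA3 is the lowest at -0.79 with TR1, and HOXC10 and HOXC11 lie near 0.

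At the other end of the cluster, HOXC10, HOXC11 and HOXC12 did not pass against wild type, and HOXC13 passed with TR1. HOXC10 (ENSG00000180818, chr12:53985065-53990279) stood at 1949 and 1962 normalized counts with the control plasmid, 2038 and 2039 with wild type, 2002 and 1914 with TR1, and 1952 and 1927 with TR2. Its log2 fold changes against wild type were -0.06 ± 0.06 with TR1 (95% interval -0.20 to 0.08, adjusted p = 0.59) and -0.07 ± 0.06 with TR2 (-0.21 to 0.07, adjusted p = 0.617). Both intervals end far below the rise of HOXC6. HOXC11 (ENSG00000123388), a caudal and hindlimb gene, stood at 708.7 to 809.2 over the 8 libraries, with 0.05 ± 0.08 for TR1 (adjusted p = 0.768) and 0.10 ± 0.08 for TR2 (adjusted p = 0.586) against wild type. HOXC12 (ENSG00000123407) had 26 to 45 reads per library, 0.27 ± 0.20 for TR1 (adjusted p = 0.448) and 0.40 ± 0.20 for TR2 (adjusted p = 0.355). HOXC13 (ENSG00000123364) stood at 1075 and 1134 normalized counts with the control plasmid, 949 and 1067 with wild type, 1347 and 1192 with TR1, and 1139 and 1101 with TR2. Both TR1 libraries of HOXC13 lay above all others, and with TR2 against wild type it did not pass (0.15 ± 0.09, adjusted p = 0.431).

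Neighbouring HOXC genes share exons, which limits how far their counts are separate. In GENCODE 29, 15.7% of the exon length of HOXC6 is shared on the same strand with HOXC4, HOXC5 or HOXC9, 17.8% of HOXC4 with HOXC5 or HOXC6, and 4.3% of HOXC9 with HOXC6. HOXC5 shares 43.4% of its exon length and carries 2 gene identifiers. HOXC8, HOXC11, HOXC12 and HOXC13 share none on their own strand, and the part of shared exons in the results was not tested. How the authors assigned reads of shared exons is not given in the sources used here.

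The promoter table from RefSeq (GRCh38.p14) held windows for 15 of the 34 HOX genes, with 21 different windows of the 250 bases before a transcript start. HOXC6, HOXC8, HOXC9, HOXC10, HOXC11, HOXC12, HOXC13, HOXA5 and all HOXB genes were among those not matched. HOXC4 and HOXC5 share 1 start at position 54016888 on the plus strand of chromosome 12, inside an annotated exon of HOXC6, and a stretch with 1 of the 2 CCAAT boxes of their window is shown because it lies at the start of a gene that rose. The capitals mark the box, which reads CCAAT on the other strand.
HOXC4 and HOXC5, chr12:54016799-54016828, plus strand: ctcacaagttggATTGGccacaagaagtca
The HOXC4 window held neither of the GATA motifs searched, AGATAA and TGATAA on either strand, nor the HOX-PBX motif TGATTNAT, the homeodomain motif TAATTA or the TATA box TATAAA. Of the 21 HOX windows, 13 held CCAAT, 5 TATAAA, 2 AGATAA, 1 TGATAA, 2 TGATTNAT and 1 TAATTA. Over all 34943 windows of the same length in the table, the shares were 32.0% for CCAAT, 10.8% for TATAAA, 9.19% for AGATAA, 6.67% for TGATAA, 2.49% for TGATTNAT and 4.35% for TAATTA. A match is a description of these letters and not a bound site.

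HOXA3 (ENSG00000105997, chr7:27106184-27152581, minus strand), which patterns the thymus, parathyroid and other organs of the pharynx, was the HOX gene that fell. It had 30.1 and 26.8 normalized counts with the control plasmid, 30.8 and 33.1 with wild type, 18.4 and 17.6 with TR1, and 22.5 and 24.1 with TR2. The TR1 libraries were lowest, TR2 lay between, and the control and wild-type libraries were highest without overlap with either truncated variant. With TR1 against wild type HOXA3 fell by 0.79 ± 0.22 on the log2 scale (adjusted p = 0.0432). It did not pass with TR1 against the control (-0.63 ± 0.22, adjusted p = 0.104), TR2 against wild type (-0.44 ± 0.22, adjusted p = 0.346) or TR2 against the control (-0.28 ± 0.22, adjusted p = 0.514). The gene rests on 19 to 32 reads per library, and the call was lost without any 1 of the 8 libraries (adjusted p 0.0584 to 0.217).

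Both AGATAA matches of the HOX windows belonged to HOXA3, which has 7 RefSeq starts. They are shown as the only matches of that motif in the HOX windows, 2 of 21, beside 9.19% of all windows. A part of these matches in the lower HOXA3 counts was not tested. The first window, of 250 bases before the start at position 27118357, lies within the HOXA3 gene. This window holds no annotated exon on its own strand, and exons of the other strand were not checked. Its capitals mark AGATAA at its far end. The second is a stretch of 30 bases that begins 115 bases before the start at position 27113842, and its capitals mark TTATCT, the same motif on the other strand.
HOXA3, chr7:27118358-27118607, minus strand: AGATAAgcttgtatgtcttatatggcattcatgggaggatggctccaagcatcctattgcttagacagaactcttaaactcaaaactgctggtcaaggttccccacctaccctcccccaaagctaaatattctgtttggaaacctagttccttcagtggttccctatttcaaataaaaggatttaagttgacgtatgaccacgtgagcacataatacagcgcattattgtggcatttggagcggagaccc
HOXA3, chr7:27113928-27113957, minus strand: ccgcactagcgcTTATCTccgggccgcggc
The counts do not separate transcripts from the 7 starts.

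The other HOXA genes past the filter did not pass a test against wild type. HOXA5, a gene of the lung and breast, had 22.6 and 40.2 normalized counts with the control plasmid, 26.98 and 23.97 with wild type, 33.0 and 35.1 with TR1, and 35.1 and 28.8 with TR2. HOXA5 stood at 0.41 ± 0.29 with TR1 (adjusted p = 0.416) and 0.31 ± 0.29 with TR2 (adjusted p = 0.651) against wild type. HOXA6 had 15 to 30 reads per library and stood at 0.50 ± 0.31 with TR1 (adjusted p = 0.336) and 0.50 ± 0.31 with TR2 (adjusted p = 0.456). HOXA11, a gene of the forelimb and uterus, had 15 to 27 reads and stood at 0.19 ± 0.26 (adjusted p = 0.684) and 0.21 ± 0.26 (adjusted p = 0.741). The libraries of wild type lay below those of both truncated variants in HOXA5 and HOXA6, and the control libraries of HOXA5 spanned those of all other groups.

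Among HOXB genes, HOXB2 and HOXB3 carried nearly all counts. HOXB2, a hindbrain patterning gene, stood at 459.6 and 483.9 normalized counts with the control plasmid, 495.2 and 519.3 with wild type, 533.3 and 455.9 with TR1, and 480.0 and 511.3 with TR2. Its groups overlapped, except that wild type lay above the control, and it stood at -0.04 ± 0.10 with TR1 and -0.03 ± 0.10 with TR2 against wild type (adjusted p = 0.842 and 0.906), signs that turned when TR1 replicate 2, or wild-type replicate 2 or TR2 replicate 1, was left out. HOXB3 stood at 397.3 and 288.9 with the control plasmid, 242.8 and 287.6 with wild type, 364.6 and 340.5 with TR1, and 334.4 and 393.4 with TR2. Wild type was lowest, just under the lower control library. HOXB3 did not pass with TR1 against wild type (0.41 ± 0.17, adjusted p = 0.139) or TR2 against wild type (0.46 ± 0.17, adjusted p = 0.179). For TR2 it passed when either TR1 library was left out, and with only these groups in the fit (adjusted p = 0.000503). Its log2 fold change stayed at 0.46 in these fits, which called far more of all genes (3134 with only these groups, against 780). HOXB4, a regulator of blood stem cells, had 5 to 21 reads per library and stood at -0.09 ± 0.46 (adjusted p = 0.931) and -0.37 ± 0.46 (adjusted p = 0.751).

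Non-coding RNAs of the HOX clusters were taken from a list of cluster transcripts, of which 13 were in the table and 8 passed the filter. With TR1 against wild type 3 of the 8 rose and 0 fell, and with TR2 against wild type 1 rose, beside 15.0% and 5.24% of all genes called in either direction. In the other 4 comparisons 0 passed in limma and 0 with voom weights, with 1 (wild type against control), 2 (TR1 against control), 1 (TR2 against control) and 0 (TR2 against TR1) at an unadjusted p under 0.05. Over all genes, the shares at that level were 13.2%, 29.1%, 17.2% and 10.1% in the same order. HOTAIR (chr12:53962308-53974956, minus strand) is known to bind Polycomb complexes. It starts within the HOXC11 gene on the other strand, shares no exon bases with it, and runs towards HOXC12. HOTAIR stood at 644.3 and 618.0 normalized counts with the control plasmid, 568.4 and 575.2 with wild type, 681.6 and 725.3 with TR1, and 707.4 and 710.8 with TR2. Wild type was lowest, and the libraries of both truncated variants lay above the control. HOTAIR rose by 0.30 ± 0.08 with TR1 (adjusted p = 0.0359) and stood at 0.31 ± 0.08 with TR2 (adjusted p = 0.0608) against wild type. HOXC13-AS (chr12:53935328-53939643, minus strand), antisense to the start of HOXC13, rose by 0.56 ± 0.15 with TR1 (adjusted p = 0.0379), from 89.6 and 78.8 to 135.7 and 113.8 normalized counts. FLJ12825 (chr12:54058254-54122234, plus strand), a long intergenic RNA beyond HOXC4, had 59.06 and 49.98 with the control plasmid, 44.3 and 37.7 with wild type, 83.4 and 60.2 with TR1, and 83.6 and 71.5 with TR2. It rose by 0.78 ± 0.22 with TR1 (adjusted p = 0.0423) and by 0.90 ± 0.22 with TR2 (adjusted p = 0.0478). These 4 calls were unstable. With 1 library left out, the call of HOTAIR was lost for each library but TR1 replicate 1, those of HOXC13-AS and FLJ12825 with TR1 for each but TR1 replicate 2, and that of FLJ12825 with TR2 for each of the control, wild-type and TR2 libraries (adjusted p 0.0542 to 0.326). HOTAIR with TR2 passed when either TR1 library was left out, at an unchanged log2 fold change of 0.31, in fits that called far more of all genes.

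Of the other non-coding RNAs past the filter, none passed against wild type. HOXC-AS1 (chr12:53999022-54000010, minus strand), within the HOXC9 gene, had 40.8 and 45.1 normalized counts with the control plasmid, 64.6 and 59.4 with wild type, 29.1 and 44.3 with TR1, and 39.6 and 27.8 with TR2. The wild-type libraries of HOXC-AS1 were highest, where those of HOXC9 were lowest. HOXC-AS1 did not pass with TR1 (-0.77 ± 0.26, adjusted p = 0.0857) or TR2 (-0.88 ± 0.26, adjusted p = 0.102) against wild type. It passed with TR1 under median centring (adjusted p = 0.0481) or without TR1 replicate 2 (-1.06), but stood at -0.47 without TR1 replicate 1. With TR2 it passed when either TR1 library was left out or with only these groups (adjusted p = 0.00193). Those fits for TR2 called far more of all genes. HOXC-AS3 (chr12:53981509-53985519, minus strand), antisense to the start of HOXC10, had 258.8 and 252.3 with the control plasmid, 249.5 and 272.8 with wild type, 211.4 and 210.8 with TR1, and 213.9 and 242.2 with TR2 (-0.30 ± 0.11, adjusted p = 0.112, and -0.20 ± 0.11, adjusted p = 0.419, against wild type). HOXB-AS1 stood at -0.64 ± 0.21 (adjusted p = 0.0767) and -0.50 ± 0.21 (adjusted p = 0.245), and HOXC-AS2 (0.00 ± 0.13, adjusted p = 0.99, and -0.16 ± 0.13, adjusted p = 0.6) and HAGLR (-0.05 ± 0.25, adjusted p = 0.924, and -0.04 ± 0.25, adjusted p = 0.955) did not pass either. The labels name a strand-specific kit. The strand setting of the counting is not given in the sources used here, so sense and antisense reads may not have been told apart.

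**Figure D5:**
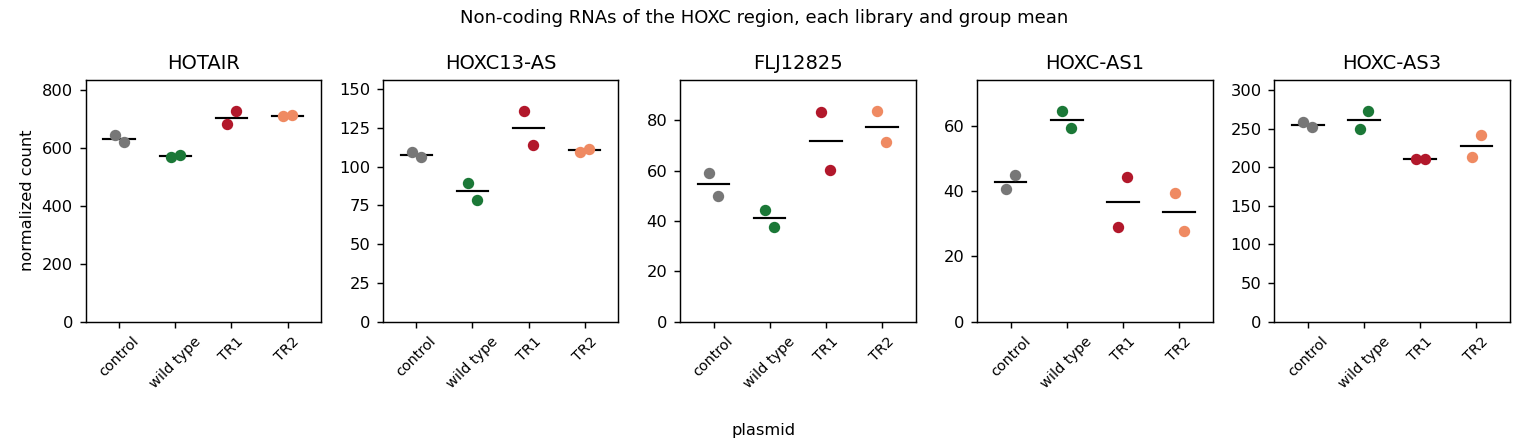
Normalized counts of 5 non-coding RNAs of the HOXC region by plasmid; each point is 1 library and each bar the mean of 2. HOTAIR, HOXC13-AS and FLJ12825 are lowest with wild type, while HOXC-AS1 is highest with wild type at 64.6 and 59.4.

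Of 12 genes in the table from a list of TALE cofactors, which includes the PBX-interacting protein PBXIP1, 11 were tested, and 1 passed in any comparison. PBX3, a cofactor that HOX proteins bind on DNA, stood at 615.3 and 525.4 normalized counts with the control plasmid, 669.6 and 665.3 with wild type, 392.7 and 420.8 with TR1, and 499.8 and 508.5 with TR2. Wild type was highest and TR1 lowest, with no overlap between any groups. PBX3 fell by 0.71 ± 0.10 with TR1 against wild type (limma adjusted p = 0.00179), in all 19 alternatives, where 7.38% of all genes were lower. It fell by 0.48 ± 0.10 with TR1 against the control (adjusted p = 0.0169), where 5.69% of all genes were lower. Without control replicate 1 the latter stood at -0.37 and was no longer called. The other 10 tested genes of the list did not pass. In the other 4 comparisons 0 genes of the list passed in limma, with 3 (wild type against control), 1 (TR2 against control), 3 (TR2 against wild type) and 2 (TR2 against TR1) at an unadjusted p under 0.05. Over all genes, the shares at that level were 13.2%, 17.2%, 18.3% and 10.1% in the same order. With voom weights PBX3 passed with TR2 against wild type. Of EVX and ParaHox genes, none passed the filter, and EVX2, the neighbour of HOXD13, had 0 reads in all libraries.

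Of 27 Polycomb and CTCF genes, all tested, 2 rose and 3 fell with TR1 against wild type, and 1 rose and 1 fell with TR1 against the control, beside 15.0% and 10.6% of all genes called in either direction. In the other 4 comparisons 0 passed in limma and 0 with voom weights, with 4 (wild type against control), 3 (TR2 against control), 4 (TR2 against wild type) and 1 (TR2 against TR1) at an unadjusted p under 0.05. These were 14.8%, 11.1%, 14.8% and 3.7% of the 27, beside 13.2%, 17.2%, 18.3% and 10.1% of all genes. PCGF5, a subunit of a variant Polycomb complex, rose by 0.72 ± 0.20 against wild type (adjusted p = 0.0429) and 0.88 ± 0.20 against the control (adjusted p = 0.0263), with TR1 libraries at 463.4 and 774.7 normalized counts. When TR1 replicate 1 was left out, PCGF5 stood at 1.09 against wild type. When TR1 replicate 2 was left out, it stood at 0.35 against wild type and 0.51 against the control, and removal of the length and GC trend gave 0.33 against the control. CBX2, a chromodomain subunit, fell by 0.32 ± 0.08 (adjusted p = 0.0357) and 0.38 ± 0.08 (adjusted p = 0.0241), the latter -0.23 with the length and GC trend removed. CBX8, another chromodomain subunit, fell by 0.39 ± 0.11 against wild type (adjusted p = 0.0412), and JARID2, a partner of the H3K27 methyltransferase complex, by 0.45 ± 0.13 (adjusted p = 0.0473). RING1, a ubiquitin ligase of Polycomb complexes, rose by 0.26 ± 0.07 against wild type (adjusted p = 0.0444). Each of these 7 calls missed the threshold when single libraries were left out, among them either wild-type library for the calls against wild type and either control library for the others, with adjusted p between 0.0556 and 0.239.

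Of 13 trithorax-group and H3K27 demethylase genes, all tested, 1 rose and 2 fell with TR1 against wild type, and 2 fell with TR1 against the control, beside 15.0% and 10.6% of all genes called in either direction. With TR2, 1 fell against the control and 1 against wild type, beside 0.396% and 2.49% of all genes. With wild type against control, and with TR2 against TR1, 0 passed in limma and 0 with voom weights, with 2 and 0 at an unadjusted p under 0.05. Over all genes, the shares at that level were 13.2% and 10.1%. DOT1L, the H3K79 methyltransferase, stood at 1783 and 1710 normalized counts with the control plasmid, 1610 and 1621 with wild type, 1255 and 1180 with TR1, and 1289 and 1309 with TR2. Both truncated variants lay below both other groups. With TR1, DOT1L fell by 0.52 ± 0.07 against the control (adjusted p = 0.00199), in all 19 alternatives, and by 0.41 ± 0.07 against wild type (adjusted p = 0.0044, but 0.0562 without wild-type replicate 2). With TR2, it fell by 0.43 ± 0.07 against the control (adjusted p = 0.0262) and 0.31 ± 0.07 against wild type (adjusted p = 0.0311), calls that were lost without either library of the control, wild type or TR2 (0.0618 to 0.278), and stood at -0.28 against the control with the length and GC trend removed. KMT2B, an H3K4 methyltransferase, fell with TR1 by 0.29 ± 0.07 against the control (adjusted p = 0.0368) and 0.26 ± 0.07 against wild type (adjusted p = 0.0432), and both calls were lost without either library of the control, wild type or TR2 (0.0696 to 0.325). With the length and GC trend removed, KMT2B stood at -0.18 against the control (adjusted p = 0.0758). WDR5, a core subunit of H3K4 methyltransferase complexes, rose by 0.34 ± 0.08 with TR1 against wild type (adjusted p = 0.0174, but 0.0752 and 0.164 without wild-type replicate 1 or 2).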

How the data were processed

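The 8 T47D libraries were made from total RNA with a strand-specific kit, per the labels' protocols. Per the submitters' processing notes, TopHat, HTSeq and hg38 were used, and no version is given. The authors deposited log2(normalized count + 1) values per gene symbol, and how the library factors were computed is not given in the sources used here. On the linear scale, the values of a library were whole multiples of 1 step, so the reads behind each value could be recovered (100% came out whole to within 0.01 read). No column of other samples was present.

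Genes that reached 10 normalized counts in 2 or more libraries were tested in R 4.3.3 with limma 3.58.1, using its trended empirical Bayes step. The 8 libraries entered a single fit on group alone (residual df 4, prior df 4.69). Two-sided p-values were adjusted after Benjamini and Hochberg over the 14881 genes of each of 6 pairwise comparisons, and the threshold was 0.05. Comparisons with a group in common share its libraries. Fold changes, given ± SE, refer to log2(value + 1), which understates changes of low genes. Intervals are 95% intervals of that fit. Annotation and exon lengths came from GENCODE 29 by symbol, and promoter windows from RefSeq. The pipeline was tested on simulated data.

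The 11 alternatives other than leaving out each of the 8 libraries were median centring, quantile normalization, a pseudocount of 10, only the groups compared, no filter, a prior variance without trend, a filter at 100, robust empirical Bayes, voom weights on the recovered reads, the replicate number as a block, and a length and GC trend removed. All HOX genes past the filter are named, and of each other list up to 6 members past the threshold. The members, the lists and the split of the HOXC cluster were chosen with earlier results of these data known.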

Additional observations from a re-analysis of the deposited data

How the results depend on the processing

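The main counts of HOX genes past the threshold were 1 for wild type against control, 1 for TR1 against control, 0 for TR2 against control, 6 for TR1 against wild type, 2 for TR2 against wild type and 0 for TR2 against TR1. For TR2 against TR1 the count was 0 in every alternative. With 1 library left out, the counts ranged from 0 to 3 for wild type against control, 0 to 2 for TR1 against control, 0 to 1 for TR2 against control, 2 to 5 for TR1 against wild type and 1 to 3 for TR2 against wild type. For wild type against control, robust empirical Bayes gave 2, only the groups compared 3, and voom weights and the length and GC trend removed 0 each. For TR1 against control, no trend in the prior variance gave 2, the length and GC trend removed 4, and median centring, quantile normalization and only the groups compared 0 each. Only the groups compared gave 3 for TR1 against wild type and 4 for TR2 against wild type. The number of all genes called moved as well. Only the groups compared took it from 251 to 1915 for wild type against control, 1578 to 483 for TR1 against control, 2229 to 1040 for TR1 against wild type and 780 to 3134 for TR2 against wild type. The length and GC trend removed took it to 471 for wild type against control and 2498 for TR1 against control. With 1 library left out it ranged from 46 to 1867 for wild type against control, 603 to 5192 for TR1 against control, 18 to 2847 for TR2 against control, 846 to 4768 for TR1 against wild type, 227 to 2212 for TR2 against wild type and 29 to 1673 for TR2 against TR1. With the replicate number as a block, TR1 against wild type kept HOXC4, HOXC6 and HOXC9, a count of 3, and the block changed no other count of HOX genes. The deviations of replicate 1 from the group means correlated at -0.09 to 0.148 over the 6 pairs of groups, so no pairing by number was evident. Such correlations cannot show whether libraries of the same number were handled together.

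Of 1693 values of named genes under an alternative, 1410 kept their direction and side of the threshold, 230 lost a call, 28 gained one and 25 changed sign. No value past the threshold changed sign. With 1 library left out, the log2 fold changes that turned ranged, with TR1 against wild type, from -0.033 to 0.412 for HOXA11, -0.153 to 0.072 for HOXB2, -0.63 to 0.454 for HOXB4, -0.024 to 0.114 for HOXC11, -0.157 to 0.165 for HOXC-AS2 and -0.188 to 0.083 for HAGLR. With TR2 against wild type they ranged from -0.013 to 0.432 for HOXA11, -0.079 to 0.012 for HOXB2, -0.321 to 0.001 for HOXC-AS2 and -0.194 to 0.113 for HAGLR. They ranged from -0.004 to 0.016 for HOXC4 and -0.406 to 0.017 for HOXC8 with TR2 against TR1, and from -0.017 to 0.059 for HOXC13 with TR2 against control. With the length and GC trend removed, HOXC4 with TR2 against TR1 stood at -0.018 and HOXC9 with TR2 against control at 0.014. Median centring gave -0.06 for HOXC13 with TR2 against control and -0.019 for HOXC-AS2 with TR1 against wild type, where quantile normalization gave -0.028. The causes were not tested. HOXC5 had no value with the length and GC trend removed, and genes that did not reach 100 normalized counts in at least 2 libraries have none with the filter at 100. Low reads limit HOXC5, HOXB4, HOXA3, HOXA11 and all HOXD genes.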
